A study of Homo sapiens with 20 samples.

Results

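Of 31428 merged H3K4me3 regions in WM164 melanoma cells, 1559 carried a peak in all 10 peak lists but were covered over fewer bases in dabrafenib-resistant cells than in parental cells. They were selected on measured values. Peaks of the 10 lists on the 22 autosomes and X that overlapped or lay within 1000 bp of each other were merged. Regions were kept when every list had a peak in them, at least 1 list had under 5000 bp under peaks, and the mean of the 2 resistant lists was at most 0.67 of the mean of the 2 parental lists. The first condition left 12087 regions, the second left 11496, called eligible here, and the third left 1559, or 13.6% of the eligible regions. The other 9937 eligible regions served for comparison. Width here means the bases under peaks within a region in 1 library. Because the selection used the resistant and parental widths, every measure of that contrast below is a description without a test, as is every other count that rests on the resistant widths of these regions.

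The study compared H3K4me3 in WM164, a BRAF-mutant melanoma cell line, across 5 groups with 2 libraries each, all made by chromatin immunoprecipitation and sequencing. The parental cells received the DMSO vehicle for 3 days before harvest. Colony cells had spent 45 days, and resistant cells more than 90 days, in 50 nM dabrafenib, which was added again every 3 days. The GFP and NRAS Q61K cells overexpressed a green fluorescent control protein or an activated form of NRAS, and no drug is listed for them. All groups share the BRAF-mutant WM164 background. The sources used here do not name the promoter or vector of the transgenes, or say whether a line was a single clone.

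Trimethylation of lysine 4 on histone H3 marks the nucleosomes around active transcription start sites, where it is laid down by SET1 and MLL family methyltransferases and removed by KDM5 demethylases. The width of the mark differs between promoters, and very broad domains are known from genes of cell identity. Dabrafenib blocks mutant BRAF and so lowers signalling through MEK and ERK, the pathway that NRAS also feeds. Regions are named here by chromosome band and by GRCh37 (hg19) coordinates, and the genes and sequences within them were not analysed here.

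The libraries differed in ways that touch these values. The 10 lists held between 19116 and 45540 peaks, with the fewest in the resistant libraries (19407 and 19116) and the most in the transgene libraries. The median width over the 12087 regions shared by all lists was 2532 and 2474 bp for resistant 1 and 2, and 3028 and 2772 bp for parental 1 and 2, so the resistant lists were narrower over constitutive regions as a whole. The lists give no read totals. The low end of the background that the caller's statistics imply was 5.01 and 3.54 reads for parental and 4.86 and 4.95 for resistant cells. It was 4.44 and 4.11 for colony and lowest for GFP cells, at 3.25 and 2.71. Divided by the length of each list's shortest peak, it corresponds to 24.8 and 19.7 reads per kb for parental and 19.1 and 19.3 for resistant cells. The order of the groups depends on this division. Per kb the value was lowest for colony cells, at 15.7 and 14.5. The colony median widths of 2918 and 2989 bp over the shared regions were above the resistant ones. After each width was divided by its library's median, 851 of the 1559 regions still met the threshold. The part of depth or enrichment in the narrowing was not tested.

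The narrowed regions had a lower median width than the other eligible regions in all 10 libraries, with the widest gap in the resistant ones. Their median width was 2524 and 2173 bp in the parental libraries, 2034 and 2135 bp in the colony libraries and 1288 and 1209 bp in the resistant libraries. It was 2503 and 2432 bp with GFP and 2542 and 2325 bp with NRAS Q61K. The 2 resistant medians were thus the lowest of the 10, and the transgene medians lay beside the parental ones. Summed over the 1559 regions, peaks covered 4.30 Mb ± 0.331 (SD, n = 2) in parental, 3.93 Mb ± 0.108 in colony, 2.29 Mb ± 0.0936 in resistant, 4.50 Mb ± 0.0424 in GFP and 4.45 Mb ± 0.245 in NRAS Q61K cells. In the other 9937 regions the medians were 3004 and 2753 bp in parental, 2918 and 2989 bp in colony, 2594 and 2541 bp in resistant, 3188 and 3123 bp in GFP and 3145 and 2960 bp in NRAS Q61K libraries.

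**Figure D1:**
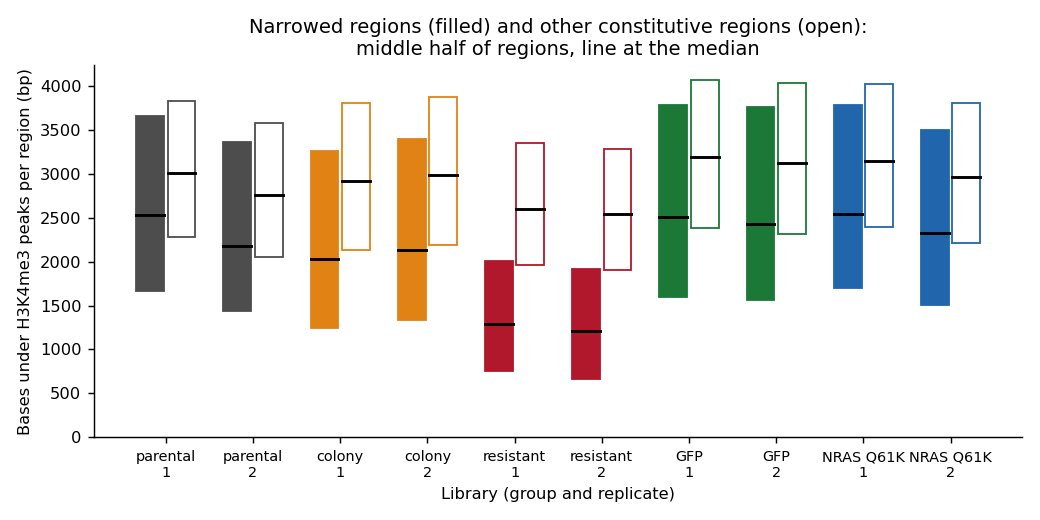
Bases under H3K4me3 peaks per region in each of the 10 libraries, for the 1559 narrowed regions (filled boxes) and the other 9937 eligible regions (open boxes). Boxes span the lower to the upper quartile and lines mark the median; the filled resistant boxes have medians of 1288 and 1209 bp, the lowest of all.

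As a ratio to the parental mean, the median narrowed region stood at 0.566 in resistant cells, against 0.886 for the other regions. Of the 1559 regions, 59 had a ratio of at most 0.25, 425 lay above 0.25 and up to 0.5, 500 above 0.5 and up to 0.6, and 575 between 0.6 and the threshold. Most of the set therefore consisted of moderate losses, and a small tail kept at most 0.25 of the parental width. Both resistant libraries were below both parental libraries in 1539 regions (98.7%), where 60.2% of all eligible regions met that criterion; the selection used this contrast, so nothing is read from it. Both resistant libraries were below all 8 other libraries in 1271 regions (81.5%), against 43.5% of eligible regions.

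The 3 regions just inside the threshold were at 9p13.3, 19p13.2 and 18p11.31, with ratios of 0.6696, 0.6696 and 0.6698. The 3 just outside were at 1p34.3, 9q22.33 and 1q21.3, with ratios of 0.6703, 0.6704 and 0.6705. The 19p13.2 region covered 2715 and 2255 bp in parental, against 1958 and 1370 bp in resistant libraries. The 1p34.3 region covered 2428 and 2286 bp in parental, against 1310 and 1850 bp in resistant libraries. The line between narrowed and other regions thus passes through a continuum of ratios.

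Narrowing left the resistant peaks inside the ground that parental peaks had covered. In 1270 regions (81.5%) more than 99% of the bases under resistant peaks were also under parental peaks, and in 3 regions fewer than 50% were. Both outer edges moved inward in 1470 regions (94.3%), and both by over 200 bp in 1060 (68.0%). The median loss of width was 1054 bp, with a median retreat of 762 bp at the edge that moved more and 299 bp at the edge that moved less. By size of loss, 157 regions lost under 500 bp, 569 lost 500 to under 1000 bp, 606 lost 1000 to under 2000 bp and 227 lost 2000 bp or more. In 516 regions (33.1%) at least 80% of the edge retreat fell on 1 side, which was the lower-coordinate side in 266 and the higher-coordinate side in 250. The retreat thus had no common direction along the chromosome, and its direction relative to transcription was not analysed here. These counts of overlap and edges were not made for the other eligible regions. The resistant mean was below the parental one in 82.1% of eligible regions. Selecting large losses of width itself favours inward edges and resistant peaks inside parental ones, so the counts describe the set and do not set it apart.

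**Figure D2:**
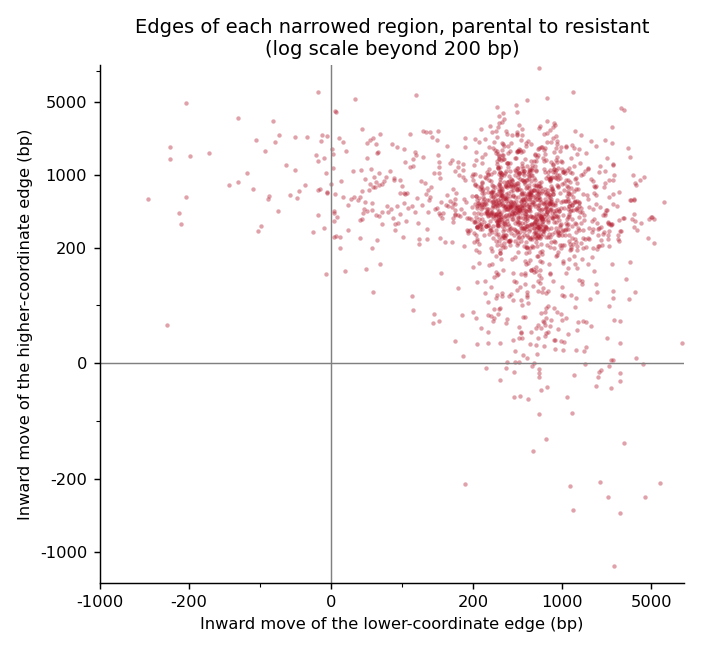
Inward move of the lower-coordinate edge (horizontal axis, bp) and of the higher-coordinate edge (vertical axis, bp) from the parental to the resistant libraries, 1 point per narrowed region, on axes that are linear within 200 bp of 0 and logarithmic beyond. Most points lie in the upper right, where both edges moved inward (1470 of 1559 regions).

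Some parental peaks had no counterpart in the resistant lists. In the narrowed regions the first parental list held 3000 peaks, of which 1076 shared no base with a resistant peak, and the second held 3386, of which 1217 shared none (35.9% in each). In the other eligible regions these shares were 16.7% and 13%. Such peaks occurred in 971 narrowed regions (62.3%) and in 32.8% of the others. The number of peaks per region was lower in resistant than in parental lists in 960 narrowed regions (61.6%) and higher in 168 (10.8%), against 44.7% and 16.8% of the others. Shortening of single peaks was seen as well: 307 regions (19.7%) were 1 peak in all 4 lists, and their median ratio was 0.563.

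The point of highest signal mostly stayed in place. The strongest summit lay within 500 bp of its counterpart in 82.4% to 85.5% of the regions when a parental list was set against a resistant list. It did so in 89.0% between the 2 parental lists and in 90.8% between the 2 resistant lists. The median distance was 125 to 155 bp across the groups, 86.0 bp within the parental pair and 105 bp within the resistant pair. In the other eligible regions these shares were 79.7% to 81.9% across groups, 86.7% in the parental pair and 86.2% in the resistant pair. A steady summit was thus not particular to the narrowed regions. In these the summit moved somewhat more between groups than between libraries of 1 group, while the edges retreated by the distances given above.

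The narrowed regions were among the weaker constitutive regions in every library, and weaker still in the resistant ones. Strength was ranked within each list by the authors' −log10 q-value of the strongest peak, as a percentile among the regions with a peak in all 10 lists. The median percentile was 28.0 and 27.5 in parental, 28.8 and 29.4 in GFP, 27.1 and 27.9 in NRAS Q61K, 24.4 and 26.1 in colony and 13.9 and 13.8 in resistant libraries. For the other eligible regions it lay between 50.5 and 53.1 in all 10. The transgene libraries entered the selection only through the conditions on a peak in every list and on the 5000 bp limit. Their ranks also placed these regions low. Whether a fixed ratio threshold picks weak regions more readily was not tested.

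The pileup at the summit, recovered as a whole number of reads from the authors' fold and p-value, was 70 and 51 reads at the median in parental, 46 and 46 in colony and 40 and 39 in resistant libraries. In the other regions it was 83 and 62, then 60 and 60, then 64 and 64. The ratio of resistant to parental pileup had a median of 0.689 in the narrowed regions and 0.886 in the others, without scaling for depth. The resistant pileup was at or above the parental one in 64 narrowed regions, and this count was not made for the other regions. The median ratio was below parental in the other regions too, so a lower summit was not particular to the narrowed ones. Summit height and width were both lower in most narrowed regions, and their order was not tested.

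The share of regions that were narrowed differed with their width and strength in the transgene cells, which the selection did not use in its contrast. Among eligible regions averaging under 1000 bp in the 4 transgene libraries, 28.7% of 418 were narrowed. The share was 26.0% of 1766 regions from 1000 to under 2000 bp, 11.8% of 3425 from 2000 to under 3000 bp, 7.71% of 3166 from 3000 to under 4000 bp and 12.1% of 2721 at 4000 bp or more. By transgene percentile of strength, it was 24.4% below 25, 11.6% from 25 to 50, 9.58% from 50 to 75 and 8.29% above 75. Narrow and weak regions were thus the most represented. Whether a fixed ratio threshold picks such regions more readily was not tested. A region wide in every other list could enter the widest class through a narrow resistant list, and without the limit of 5000 bp that class held 10.5% of 3312 regions.

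The 10 regions with the lowest ratios kept between 0.0613 and 0.138 of their parental width. At the end of the long arm of chromosome 16, the 16q24.3 region (chr16:90146959-90160007) covered 9552 and 8793 bp in parental, 8791 and 10129 bp in colony and only 552 and 572 bp in resistant libraries. It covered 8305 and 7670 bp with GFP and 8567 and 8673 bp with NRAS Q61K. The parental lists held 5 and 8 peaks there and each resistant list held 1, and the edge on the higher-coordinate side moved inward by 10638 bp. The 8 libraries outside the resistant group did not overlap with it, and the colony libraries stood at the parental level (ratio 1.03).

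A contrasting course appeared at 18p11.31 (chr18:3281696-3286477), with 3813 and 3757 bp in parental, 1560 and 1645 bp in colony and 255 and 256 bp in resistant libraries. The GFP libraries covered 4244 and 4524 bp there and the NRAS Q61K libraries 4591 and 3940 bp. Here the colony libraries lay between the parental and resistant ones (ratio 0.423). The resistant values are close to the shortest peaks of those lists, 255 and 256 bp, so that width could hardly be lower while a peak was still called.

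Other regions of this tail followed 1 course or the other. The 12p13.1 region (chr12:13043817-13047615) covered 3143 and 3024 bp in parental, 2112 and 2869 bp in colony and 333 and 324 bp in resistant libraries. The 20p13 region (chr20:3786590-3793300) covered 4835 and 4287 bp in parental, 6447 and 5525 bp in colony and 731 and 445 bp in resistant libraries. The colony libraries were therefore below the parental ones at 12p13.1 and above them at 20p13. At 3p14.1 (chr3:64199158-64202913) the widths were 3180 and 3059 bp in parental, 3175 and 3756 bp in colony and 539 and 265 bp in resistant libraries, and at 7p14.3 (chr7:33037082-33043100) the resistant libraries covered 587 and 256 bp against 3388 and 3167 bp. The summit pileup at 3p14.1 was 170 and 137 reads in parental and 58 and 51 in resistant libraries.

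The remaining 4 lie beside centromeres or in a segment rich in duplicated sequence: 2p11.2 (chr2:89865115-89873393), 1p11.2 (chr1:120813473-120819690) and a pair at 4p11 (chr4:49103048-49117466 and chr4:49118557-49158673). The larger 4p11 region was the widest of the whole set in parental cells, with 20981 and 20857 bp spread over 35 and 40 separate peaks, against 1095 and 1676 bp in 4 and 5 peaks in resistant libraries. Its parental pileups of 187 and 202 reads stood beside a mean strength percentile of only 14.7. Reads from repeated sequence can be placed on several copies, so widths there are uncertain. In all, 30 of 116 eligible regions in centromeric or variable heterochromatin bands were narrowed (25.9%), and 1529 narrowed regions lay outside those bands.

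**Figure D3:**
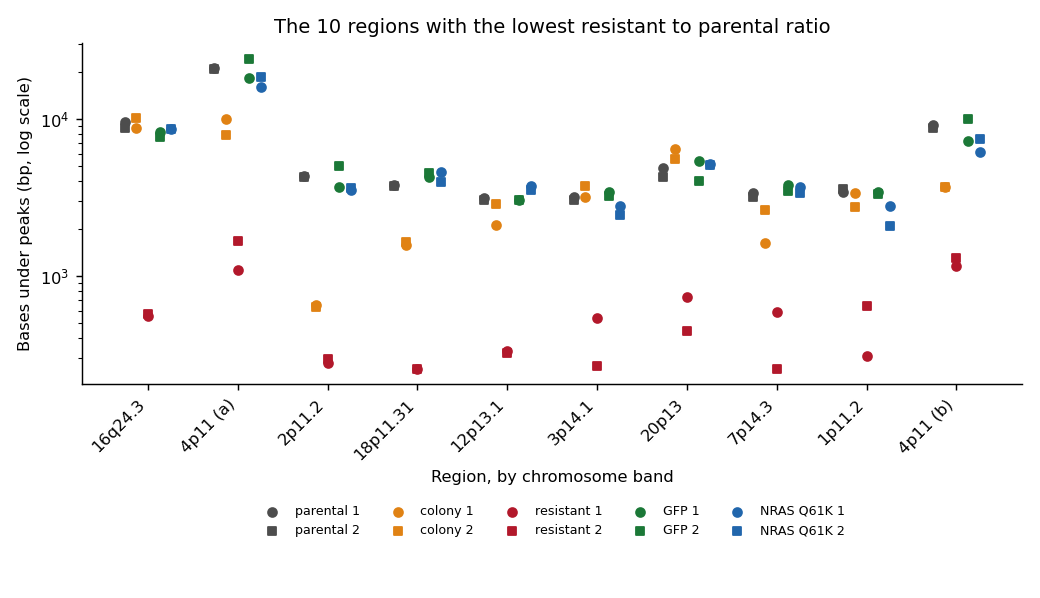
Bases under peaks (logarithmic axis, bp) in each of the 10 libraries for the 10 regions with the lowest resistant to parental ratio, circles for replicate 1 and squares for replicate 2. The resistant points are the lowest in each region, while the colony points lie near the parental ones at 16q24.3 and below them at 2p11.2 and 18p11.31.

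The other regions of greatest parental width were also mostly pericentromeric. At 17p11.1 (chr17:22244613-22262887) the parental libraries covered 14275 and 14331 bp and the resistant ones 1976 and 2372 bp. At 8p11.1 the parental ones covered 14172 and 13858 bp and the resistant ones 3826 and 1258 bp. At 8q11.1 the values were 12915 and 13224 bp against 3091 and 3513 bp. In this order, the ratios to parental were 0.146, 0.419 and 0.478 with NRAS Q61K and 0.849, 0.894 and 0.940 with GFP. Low width there was thus not particular to resistant cells. The exception among these wide regions was 8q22.3 (chr8:104305735-104318503), outside heterochromatin. It covered 12190 and 10658 bp in parental, 7052 and 7605 bp in colony and 5343 and 4976 bp in resistant libraries. There 5 and 4 parental peaks stood against 1 in each resistant list.

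Among the strongest members, narrowing was moderate. The region of highest mean percentile (97.3) was at 3p13 (chr3:70046324-70052621), with 4966 and 5737 bp in parental, 4927 and 5835 bp in colony and 3502 and 3443 bp in resistant libraries. Its summit pileup was 232 and 198 reads in parental and 218 and 218 in resistant libraries, so the edges were closer together with the summit at about the parental height. The next 4 were a pair at 17p13.2, 1 at 16q21 and 1 at 17p13.1, with ratios from 0.559 to 0.654. At 17p13.2 (chr17:5367291-5373858) the widths were 5296 and 5133 bp in parental, 6341 and 5762 bp in colony and 3150 and 3674 bp in resistant libraries. Resistant and parental libraries did not overlap in any of these 5 regions.

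Colony cells, sampled earlier in the same drug, shared the narrowing in some regions and not in others. They are compared here with the same parental libraries that the selection used, so these values are a description. The median colony to parental ratio was 0.914 in the narrowed regions and 1.03 in the others. Both colony libraries were below both parental libraries in 647 narrowed regions (41.5%, against 23.2% of eligible regions), above both in 266 (17.1%, against 28.9%), and overlapped in 646. In the 647 regions the median colony ratio was 0.734, and the median resistant ratio there was 0.549. In the 266 regions the medians were 1.21 and 0.576; the threshold caps the resistant ratio in both sets.

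The regions were selected for low resistant widths, so the counts against colony cells also draw on values the selection used. Both resistant libraries were below both colony libraries in 1316 narrowed regions (84.4%, against 62.6% of eligible regions). A stepwise order without overlap, parental above colony above resistant, was found in 454 regions (29.1%), against 8.11% of eligible regions. The colony ratio itself was at most 0.67 in 247 narrowed regions (15.8%) and in 3.74% of the others. For GFP it was at most 0.67 in 28 narrowed regions (1.80%, against 1.08% of the others). For NRAS Q61K it was so in 15 (0.962%, against 0.201%). Both GFP libraries were below both parental ones in 14.0% of narrowed and 7.63% of eligible regions, and above in 29.1% and 42.4%. For NRAS Q61K the shares were 13.9% and 8.89% below, and 25.2% and 32.2% above. A larger share below parental cells was thus not particular to colony cells. The median GFP and NRAS Q61K ratios to parental were 1.04 and 1.03. The direction of these last medians is not firm: after scaling by library medians they were 0.950 and 0.976, and without parental 2 they were 0.988 and 0.978.

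**Figure D4:**
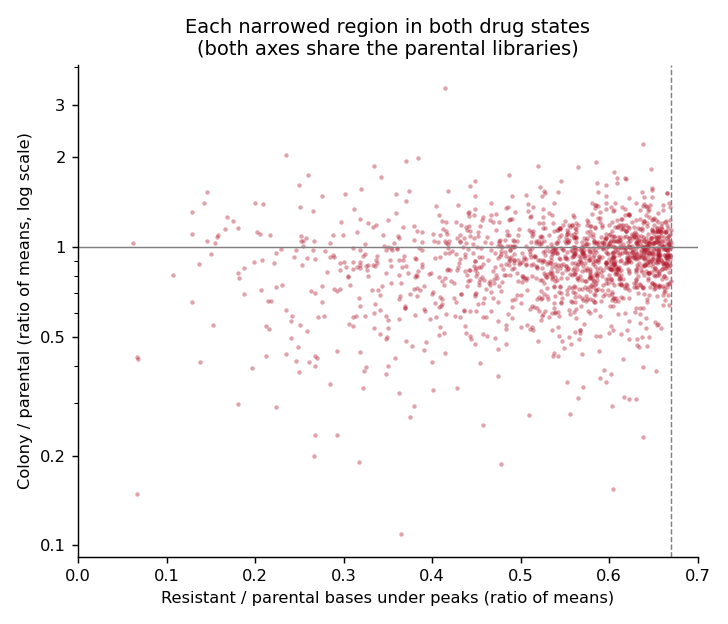
Ratio of mean width to the parental mean in resistant cells (horizontal axis) and in colony cells (vertical axis, logarithmic), 1 point per narrowed region, with the selection threshold dashed. Colony ratios run from 0.109 to 3.42 around a median of 0.914; both axes share the parental libraries.

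The regions at the ends of the colony range show both courses. At 9q34.3 (chr9:139962560-139966182) the widths were 3296 and 2709 bp in parental, 342 and 311 bp in colony and 1079 and 1111 bp in resistant libraries. At 14q32.11 (chr14:91579499-91583454) they were 2608 and 2709 bp, then 540 and 284 bp, then 1836 and 1379 bp. In both, the colony libraries were narrower than the resistant ones, and the colony and resistant values did not overlap. At 8p23.1 (chr8:12648927-12655202) the colony libraries covered 798 and 1204 bp against 2532 and 2564 bp in the resistant ones, and at 12q24.11 (chr12:110383036-110385944) they covered 282 and 392 bp against 834 and 284 bp, which overlapped.

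At the other end, colony cells were wider than parental cells. The 4q32.1 region (chr4:159088283-159094217) covered 1666 and 1359 bp in parental, 5182 and 5155 bp in colony and 643 and 609 bp in resistant libraries, with summit pileups of 48 and 31, 47 and 58, and 19 and 23 reads. The 2p25.1 region (chr2:11751613-11757540) covered 2776 and 2150 bp, then 5009 and 5063 bp, then 636 and 523 bp. Each was thus wide in colony and narrow in resistant cells without overlap with the parental libraries. The same order held at 9p21.3, Xq11.2 and 17q25.3, with colony ratios of 1.95, 1.99 and 2.22. The last covered only 587 and 415 bp in parental libraries and had a mean percentile of 0.857. At these regions the mean was above parental with GFP (ratios 1.65, 1.44 and 1.28) and NRAS Q61K (1.58, 1.28 and 1.44) too. Colony against GFP was not called there (limma adjusted p = 0.188, 0.158 and 0.0741). It was called at 4q32.1 and 2p25.1 (limma adjusted p = 0.00258 and 3.27e-04), where the GFP ratios were 0.981 and 1.09.

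Colony and GFP cells, neither of them in the contrast of the selection, could be tested against each other, with the spread estimated over all 5 groups. Widths were compared with limma on log2(bases + 200) over all 23153 regions with a peak in at least 2 lists, with Benjamini-Hochberg adjustment at 0.05. Of the 1559 narrowed regions, 300 (19.2%) were narrower in colony than in GFP cells and 133 (8.53%) were wider. Over the eligible regions 10.6% were narrower and 10.5% wider, and over all tested regions 20.7% were narrower and 7.35% wider. The narrowed regions thus held a larger share of narrower calls than the eligible regions, but a slightly smaller one than all tested regions. The tested regions needed a peak in only 2 lists, so some of their narrower calls can be missing peaks. Their share is therefore not a like measure for regions with a peak in every list. The differences between these shares were not tested. The median log2 difference was -0.09 in the narrowed regions, against 0.02 for the other eligible regions. Drug, transgene and preparation cannot be told apart in this comparison. With the 4 colony and GFP libraries alone in the fit, 177 were narrower and 100 wider. Without centring of the libraries the calls were 349 narrower and 66 wider. Leaving out GFP 1 or GFP 2 gave 175 or 158 narrower and 77 or 75 wider, and leaving out colony 1 or colony 2 gave 82 or 77 wider.

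The clearest narrower call was at 1p34.2 (chr1:40250957-40256920), where the colony libraries covered 1443 and 1432 bp and the GFP libraries 5343 and 4764 bp. The log2 difference was -1.58 (SE 0.07, limma adjusted p = 3.99e-06), and the parental and resistant libraries covered 4735 and 4530 bp and 3010 and 2764 bp. The 9q34.3 region described above differed by -2.38 (SE 0.13, limma adjusted p = 1.71e-05). At 12q13.13 (chr12:51659409-51666195) the colony libraries covered 1299 and 1347 bp and the GFP libraries 3775 and 4243 bp, a log2 difference of -1.37 (SE 0.08, limma adjusted p = 1.84e-05). The 2p11.2 region in duplicated sequence and the 8p23.1 region completed the 5 smallest p-values, with log2 differences of -2.32 and -2.02. In 4 of these 5 regions, all but the one at 2p11.2, the colony libraries were narrower than the resistant ones too.

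Among wider calls the smallest p-value was at a second place in 2p11.2 (chr2:86111391-86122486), with 10515 and 10868 bp in colony and 7518 and 7202 bp in GFP libraries (log2 difference 0.62, SE 0.04, limma adjusted p = 3.35e-05). Its resistant libraries covered 4897 and 4741 bp. The next were at 2q24.3, at 2p11.2 (chr2:85986924-85993636), at 22q11.22 and at 17q25.3 (chr17:78127356-78138381), with log2 differences of 0.72, 1.45, 0.69 and 1.02. At 22q11.22 (chr22:22891139-22902916) the widths were 10756 and 10408 bp in colony, 7127 and 6748 bp in GFP and 4150 and 4380 bp in resistant libraries. All 5 were thus wider in colony than in GFP and parental cells and had their lowest mean in resistant cells, although at 2p11.2 (chr2:85986924-85993636) the resistant and GFP libraries overlapped, at 1992 and 1725 bp against 2116 and 1920 bp.

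Between the transgenes, which also share the GFP libraries with the comparison above, few narrowed regions differed. With NRAS Q61K, 33 (2.12%) were wider than with GFP and 8 (0.513%) were narrower by limma. The background was 1.96% wider and 0.374% narrower over the eligible regions, and 5.06% and 2.18% over all tested regions, so the share called was close to that of the eligible regions. These calls rest on the spread shared by all 5 groups: with the 4 transgene libraries alone limma called 0 wider and 0 narrower, with 171 and 78 at an unadjusted p under 0.05. Without centring, 10 were wider and 10 narrower. Without GFP 2, NRAS Q61K 1 or NRAS Q61K 2 the wider calls were 13, 10 or 13 and the narrower calls 1, 2 or 2. The self-test on simulated widths used all 5 groups and only the 12087 regions with a peak in every list. It recovered 86 of 100 changes of 0.75 on the log2 scale between these groups. It does not bear on the fit with 4 libraries.

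Each of the 10 regions named for this comparison lost its call with the 4 transgene libraries alone, with limma adjusted p-values of 0.0526 at 5q15 and 0.0702 at 3q29. Of the regions called with all 5 groups, 5q15 (chr5:95153760-95160267) covered 6234 and 6203 bp with NRAS Q61K and 3663 and 3831 bp with GFP, a log2 difference of 0.75 (SE 0.09, limma adjusted p = 0.00467). It covered 3231 and 2590 bp in parental, 1472 and 1604 bp in colony and 1789 and 1509 bp in resistant libraries, so both drug groups were below parental cells where NRAS Q61K was above them. At 3q29 (chr3:194405847-194410663) the widths were 4451 and 4263 bp with NRAS Q61K and 2352 and 1896 bp with GFP (log2 difference 1.03, SE 0.11, limma adjusted p = 0.00333). The other wider regions of the 5 with the smallest p-values were at 2p22.2, 20q13.13 and 6q21, with log2 differences of 0.56, 0.61 and 0.39. In those 3, the GFP libraries were below the parental ones and the NRAS Q61K libraries were closer to them.

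The 5 narrower regions with the smallest p-values included the pericentromeric 17p11.1 region, at 1235 and 2949 bp with NRAS Q61K and 10553 and 13733 bp with GFP (log2 difference -2.48, SE 0.34, limma adjusted p = 0.00658), and the 8q11.1 region (log2 difference -0.92). The others were at 12q24.31, 19p13.2 and 17p13.1, with log2 differences of -0.44, -0.64 and -0.59. These 3 lost the call without GFP 2, NRAS Q61K 1 or NRAS Q61K 2, with adjusted p-values of 0.0517 to 0.119, and the 8q11.1 region lost it without GFP 2 (adjusted p = 0.107).

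Narrowed regions were unevenly spread over the chromosomes. On 19p, 129 of 354 eligible regions were narrowed (36.4%), on 18p 16 of 49 (32.7%), on 12q 113 of 443 (25.5%) and on 17p 38 of 168 (22.6%). These 4 arms, singled out after their values were seen, held 296 narrowed regions, or 19% of the set, but 8.82% of the eligible regions. Elsewhere 12% of eligible regions were narrowed, and the lowest shares were 3.60% on 10q, 3.64% on 21q, 5.42% on 13q and 6.92% on 11q. The shift involved the general width of the arm: the median resistant ratio over all eligible regions was 0.719 on 18p, 0.724 on 19p, 0.767 on 12q and 0.799 on 17p, but 1.00 on 21q. Over the 41 arms with at least 40 eligible regions, the corresponding medians ran from 0.916 to 1.14 in colony, 1.03 to 1.12 in GFP and 1.02 to 1.09 in NRAS Q61K cells.

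**Figure D5:**
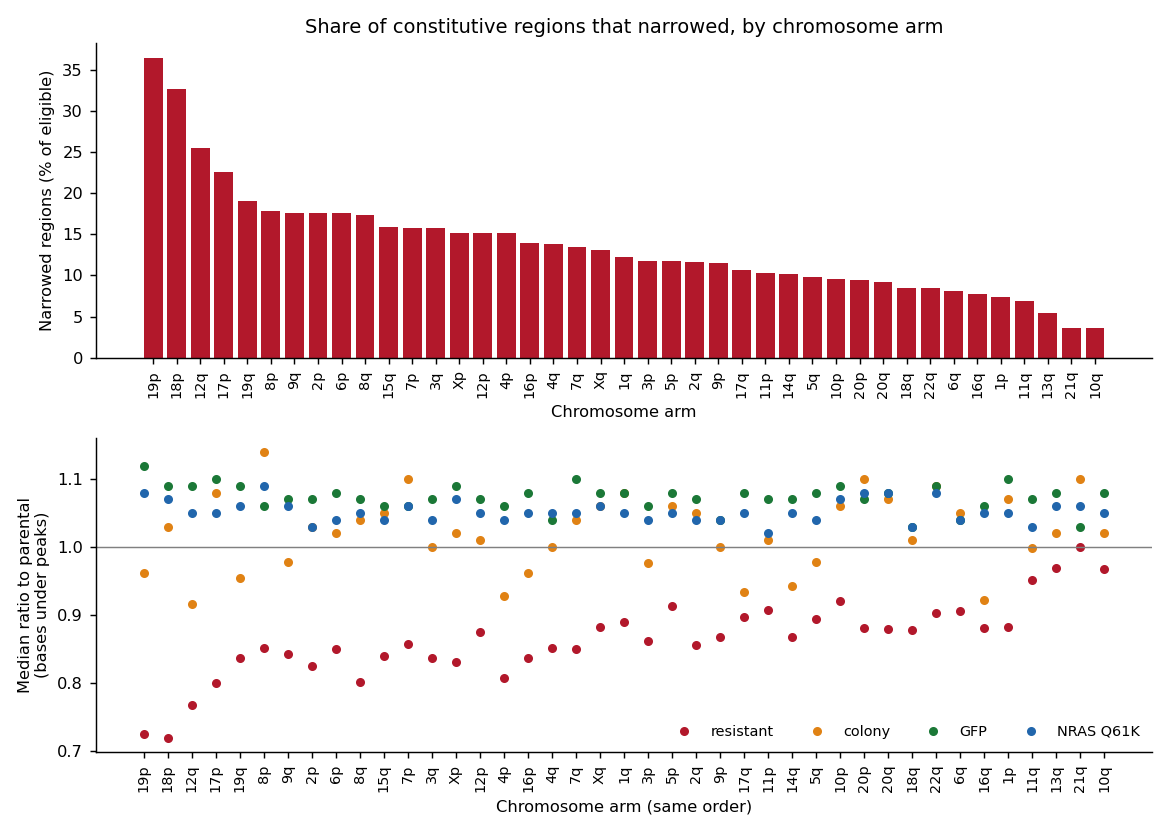
Upper panel, narrowed regions as a percentage of the eligible regions of each chromosome arm with at least 40 of them; lower panel, median ratio of width to parental over all eligible regions of the same arms in 4 groups. The resistant medians are lowest on the arms with the largest shares (0.724 on 19p, where 36.4% narrowed) and reach 1.00 on 21q, while the transgene medians stay between 1.02 and 1.12.

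Signal height also differed between these arms. After scaling each library to its median over constitutive regions, the resistant to parental ratio of summit pileup had a median of 0.832 on 19p, 0.817 on 18p, 0.848 on 12q and 0.812 on 17p. It was 1.40 on 21q, 1.34 on 13q and 1.26 on both 10q and 11q. Across the 41 arms the share narrowed and this ratio had a Pearson r of -0.756 and a Spearman rho of -0.748, as a description of arms that share the same libraries. The pileup ratio for colony cells gave a Pearson r of -0.204. The share narrowed was set by the resistant to parental contrast, so a link with the resistant pileup ratio was built in. The colony contrast did not define that share, so the weaker value cannot show that the link is particular to resistant cells. The local background used by the peak caller was lower on 17p in resistant cells (scaled ratio 0.766) and higher on 13q and 21q (1.16 on each). It was 1.01 on 10q and 1.02 on 11q. On 19p, 18p and 12q, 78.0%, 90.8% and 69.6% of values were at the lowest level the caller uses, so they carry no information on the local background. That share was 24.7% on 17p, 50.9% on 13q, 45.5% on 21q, 69.7% on 10q and 59.2% on 11q, which limits those ratios as well. Whether the number of copies of an arm differed between the groups was not tested. When each ratio was scaled by the median of its arm, 1486 regions met the threshold, of which 1359 belonged to the 1559. The scaling was not a plain division by the arm median. Those medians reached at most 1.00, so division alone could add no region. The count concerns differences between arms and not the narrower resistant widths as a whole.

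The arms differed in what colony cells showed. On 12q, both colony libraries were below both parental ones in 72 of 113 narrowed regions (63.7%, median colony ratio 0.803). On 19p this held for 40 of 129 (31.0%, ratio 0.938), on 17p for 9 of 38 (23.7%, ratio 1.03) and on 18p for 2 of 16 (12.5%, ratio 1.00). By limma, 38 of the 113 narrowed regions on 12q were narrower in colony than in GFP cells (33.6%), against 26.0% of all eligible regions of 12q. On 19p the shares were 18.6% and 15.8%, on 17p 7.89% and 3.57%, and on 18p 12.5% (2 of 16) and 18.4%, where 10.6% held over all arms. The share of eligible regions called narrower in colony than in GFP cells was thus above that of all arms on 12q, 18p and 19p and below it on 17p; the difference between arms was not tested.

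Within arms, narrowed regions formed some short runs. Consecutive eligible regions that were all narrowed held 500 of the 1559 regions in runs of 2 or more, and 12 runs held 4 or more. Such runs can arise from the overall and arm shares alone. The number to be expected from those shares was not worked out, so no clustering is read from the runs. The longest runs had 5 regions, at 17p13.1 (chr17:7892338-8116855) and from 19q13.32 to 19q13.33 (chr19:47851906-48105220), with median resistant ratios of 0.555 and 0.535 and median colony ratios of 1.06 and 0.907. A run of 4 at 12q22 (chr12:94134902-94657701) had a median ratio of 0.531 in resistant and 0.520 in colony cells, so the medians of the drug groups lay close together there. A run of 4 at 17p11.2 (chr17:19044356-19101003) had 0.434 in resistant and 1.12 in colony cells. By band, 10 of 19 eligible regions at 12q22 (52.6%), 12 of 26 at 12q24.11 (46.2%) and 45 of 114 at 19p13.2 (39.5%) were narrowed. Within 2 Mb of a chromosome end 12.1% of eligible regions were narrowed, against 13.6% in all.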

How the data were processed

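The authors deposited 1 peak list for each of the 10 H3K4me3 libraries; the inputs were not analysed here. Listed in the submitters' processing notes are MACS2 2.1.2, BWA, SAMtools and deepTools 2.5.4, with GRCh37 and hg19. Deposited peaks carry start, end and summit position in bases, a score, a fold over local background (a ratio), and −log10 p-value and −log10 q-value, called per library. These peak values are the authors' and were used only within a list. Titles gave the groups and replicate numbers. Separate cultures are not stated for the replicates; the p-values then reflect spread among these libraries alone, possibly technical. A comparison of 2 against 2 cannot give an exact two-sided p below 0.333.

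Only chromosomes 1 to 22 and X were used, which dropped 589 of 306884 peaks. Summit pileup was solved from fold and p-value under the caller's Poisson test with 1 added to both; all 306295 peaks gave a whole number within 2.68e-04 in −log10 p. The lists give no read depth. The test of covered bases used log2(bases + 200) in limma 3.58.1 (R 4.3.3), each library centred on its median over regions in all 10 lists, with 5 group means and a variance trend, over regions present in 2 or more lists. On simulated data for only the 12087 regions in all 10 lists, the fit recovered 86 of 100 changes of 0.75 log2 and 99 of 100 of 1.5. It made 8 false calls. Bands came from circlize 0.4.16. The annotation at hand is of another build, so genes, planned gene lists and sequences were not analysed here.

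The regions and lists were chosen with earlier results of these data known. Named regions are those with the lowest resistant ratio (10), the most parental bases (5), the highest strength percentile (5), the lowest and highest colony ratio (5 each), the smallest adjusted p in each direction of each limma comparison (5 each), and the 3 on each side of the threshold. Bands, arms and runs were chosen after their values were seen. Alternatives changed merging, peak strength, list length, thresholds, scaling, pseudocount, filter, variance model, replicate block and libraries.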

Additional observations from a re-analysis of the deposited data

Results flagged for a closer look

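In 265 of the 1559 narrowed regions, both colony libraries lay above and both resistant libraries below both parental libraries, so the drug groups differed from parental cells in opposite directions. That is 17% of them, against 15.8% of all eligible regions, and the resistant side of it was set by the selection. Both colony libraries were above in 17.1% of narrowed and 28.9% of eligible regions. The 5 regions with the highest colony to parental ratios were among them, with 3.42 at 4q32.1, 2.22 at 17q25.3, 2.04 at 2p25.1, 1.99 at Xq11.2 and 1.95 at 9p21.3. At 17q25.3, Xq11.2 and 9p21.3 the GFP and NRAS Q61K means were also above parental (ratios 1.28 to 1.65), and colony against GFP was not called by limma. The colony and resistant directions are both taken against the same parental libraries, and the difference between these drug groups was not tested.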

How the results depend on the processing

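The number of narrowed regions was 484 and 3964 at ratio thresholds of 0.5 and 0.8 and 851 after scaling by library medians. It ran from 1090 with peaks kept at a −log10 q-value of at least 10 to 1594 with only overlapping peaks merged, and from 1265 (without parental 1) to 2077 (without parental 2) when 1 library was left out. Scaling by library medians also moved the median ratios to 0.897 (colony), 0.656 (resistant), 0.950 (GFP) and 0.976 (NRAS Q61K). With 1 library left out they ran from 0.863 to 0.972, 0.529 to 0.598, 0.988 to 1.10 and 0.978 to 1.09, with 0.987 for NRAS Q61K without its replicate 1. For NRAS Q61K against GFP, wider and narrower calls were 10 and 10 without centring, 20 and 5 without the variance trend, 13 and 5 with stronger peaks, and 27 and 5 without the filter. With those 4 libraries alone limma called 0 and 0, with 171 and 78 at an unadjusted p under 0.05. Leaving out 1 library gave 10 to 22 and 1 to 6. For colony against GFP, calls were 66 wider without centring and 58 wider and 131 narrower with stronger peaks, and those 4 libraries alone gave 177 narrower. Leaving out 1 library gave 75 to 82 wider and 158 to 239 narrower. Of 240 refits of 20 named calls, 220 kept the call, 20 lost it and 0 changed direction; 10 of the losses came with the 4 libraries alone. The replicate numbers did not pair the samples (r from -0.0463 to 0.125 over 10 pairs of groups), and a replicate block gave 28 wider and 7 narrower for NRAS Q61K, and 130 wider and 282 narrower for colony. The alternatives of scaling by arm (1486) and leaving out heterochromatin bands (1529), were added after seeing the data. Having 2 libraries per group and unknown read depth limit all values.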
